A study of Mus musculus with 12 samples.

Results

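Langerin and 9 further C-type lectin receptors of dendritic cells were followed across migratory dendritic cells of 3 tissues. The 10 genes were chosen by symbol, Cd207, Cd209a, Cd209d, Clec9a, Clec4a4, Clec4a1, Clec10a, Clec12a, Mgl2 and Ly75, and all 10 were found among the 55401 genes measured. The groups were pancreas, liver and duodenum, with 4 libraries of polyA RNA in each, every library made from 2 pooled B6 mice aged 6 to 8 weeks. The labels name no treatment or mutation in any group, and all 3 groups went through the same sort, which retained live CD45+ cells without lineage markers that were CD11c+, high for MHC class II, CD103+ and CD11b-. Libraries held between 220.9 M and 356.1 M estimated counts. Levels are given in TPM, a unit of relative abundance corrected for gene length, and differences as log2 values of the first tissue named minus the second.

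C-type lectin receptors are membrane proteins with a lectin-like domain, with which dendritic cells bind sugars on microbes and on self proteins, or parts of dead cells, and take up what they bind. Conventional dendritic cells fall into a cDC1 type, specialised in presenting antigen from dead cells to CD8 T cells, and a cDC2 type. Clec9a and Ly75 are used as markers of cDC1, whereas Clec4a4, Cd209a, Clec10a and Mgl2 are better known from cDC2 or from monocyte-derived cells and macrophages. Langerin, the product of Cd207, forms the Birbeck granules of Langerhans cells of the skin and is also made by CD103+ dendritic cells of several tissues.

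The sorted cells carried the RNA of cDC1 in all 12 libraries. The summed level of 10 cDC1 markers was 5852 to 7612 CPM, counts scaled to library size, in pancreas, 6676 to 7913 CPM in liver and 4376 to 6826 CPM in duodenum. Without Id2, the highest on average, the other 9 summed to 3941 to 5064, 4424 to 5394 and 3579 to 5418 CPM. Of the 10, 4 differed between pancreas and duodenum, 3 between liver and duodenum and 0 between pancreas and liver (edgeR, adjusted p under 0.05). Of all genes tested, 7.7%, 7.32% and 1.11% did. That share depends on the filter on low counts. With a filter of 1 CPM in 1 tissue, 4842, 4752 and 955 of 18635 genes did. Itgam, which encodes the CD11b used to leave cells out of the gate, lay between 1.05 and 3.49 CPM over the 12 libraries.

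The promoters of the 3 lectins with the largest tissue differences among those that had a promoter in the sequence table are shown first, because these 3 genes separate the tissues in opposite directions. They are the 250 bases before each RefSeq transcription start in build GRCm38.p6, 5′ to 3′ on the gene's strand, with matches to the searched motifs in capitals.
Cd207, chr6:83677858-83678107, minus strand: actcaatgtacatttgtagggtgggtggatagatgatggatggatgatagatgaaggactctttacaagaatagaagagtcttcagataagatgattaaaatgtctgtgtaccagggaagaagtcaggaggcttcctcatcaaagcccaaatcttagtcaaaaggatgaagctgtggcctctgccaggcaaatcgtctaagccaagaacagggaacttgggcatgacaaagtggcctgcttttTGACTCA
Cd209a, chr8:3748985-3749234, minus strand: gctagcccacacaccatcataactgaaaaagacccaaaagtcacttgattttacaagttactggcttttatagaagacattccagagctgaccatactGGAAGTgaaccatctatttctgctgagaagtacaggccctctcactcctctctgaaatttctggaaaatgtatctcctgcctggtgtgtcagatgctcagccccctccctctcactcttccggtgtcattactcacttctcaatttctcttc
Cd209d, chr8:3878500-3878749, minus strand: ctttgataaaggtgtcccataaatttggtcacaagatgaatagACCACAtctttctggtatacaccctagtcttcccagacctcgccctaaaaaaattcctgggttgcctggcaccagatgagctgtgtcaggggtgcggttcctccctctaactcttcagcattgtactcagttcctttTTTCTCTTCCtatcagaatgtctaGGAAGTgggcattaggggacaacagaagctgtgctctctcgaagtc
The capitals in Cd207 are 1 match to the AP-1 motif TGANTCA, at bases -7 to -1 from the start, a motif found in 6.75% of the 32851 promoters of the same length. The capitals in Cd209a are 1 match to the ETS motif GGAAGT at bases -152 to -147, which 19.7% of promoters hold. Cd209d held the same ETS motif at -46 to -41, a match on the opposite strand to the combined ETS and IRF motif, GGAA and GAAA parted by 2 bases, at -70 to -61, found in 2.30% of promoters, and a match on the opposite strand to the RUNX motif TGTGGT at -207 to -202, found in 14.0%. Both strands were searched for these and for the interferon response motif (GAAA repeated after 2 bases), the SMAD motif GTCTAGAC, the retinoic acid motif (AGGTCA repeated after 5 bases) and the CRE motif TGACGTCA, none of which matched in these 3 windows. A match describes the letters only.

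Measured per length, Clec9a was the highest of the 10 lectins in every tissue. Clec9a encodes DNGR-1, which binds actin filaments exposed on dead cells, and averaged 190 ± 14.7 TPM in pancreas, 241 ± 27.7 TPM in liver and 175 ± 30.4 TPM in duodenum (SD, n = 4; here and below, ± after a level is the SD over 4 libraries, and ± after a log2 difference is the SE of the fit). Clec12a, an inhibitory receptor that senses uric acid crystals from dead cells, came second in each tissue, with no overlap with Clec9a. The order of the other 8, which include Ly75, the endocytic receptor DEC-205, depended on the tissue.

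Langerin ranked next after these 2 in pancreas and in liver, above Ly75 with no overlap of libraries in either tissue. In duodenum Ly75 took that rank at 14.8 ± 2.92 TPM, followed by Cd209a, Cd209d and Clec10a, whose libraries overlapped from each neighbour to the next. Below them in duodenum, and not overlapping Clec10a, came Clec4a4 and Mgl2, which overlapped each other, and then Clec4a1 and langerin, which also overlapped each other. In pancreas the 6 genes below Ly75 were ordered Mgl2, Clec10a, Clec4a1, Cd209a, Cd209d and Clec4a4, and in liver Cd209a, Clec10a, Mgl2, Cd209d, Clec4a1 and Clec4a4. Each of these neighbours in pancreas and in liver overlapped the next.

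The share of langerin in the summed TPM of the 10 lectins was 11.5 to 20.3% in pancreas libraries, 6.22 to 8.68% in liver libraries and 0.00566 to 0.204% in duodenum libraries. The 6 lectins other than Clec9a, Clec12a, Ly75 and Cd207 summed to 3.62 to 9.42 TPM in pancreas, 2.55 to 6.33 TPM in liver and 26.4 to 42.6 TPM in duodenum.

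**Figure D1:**
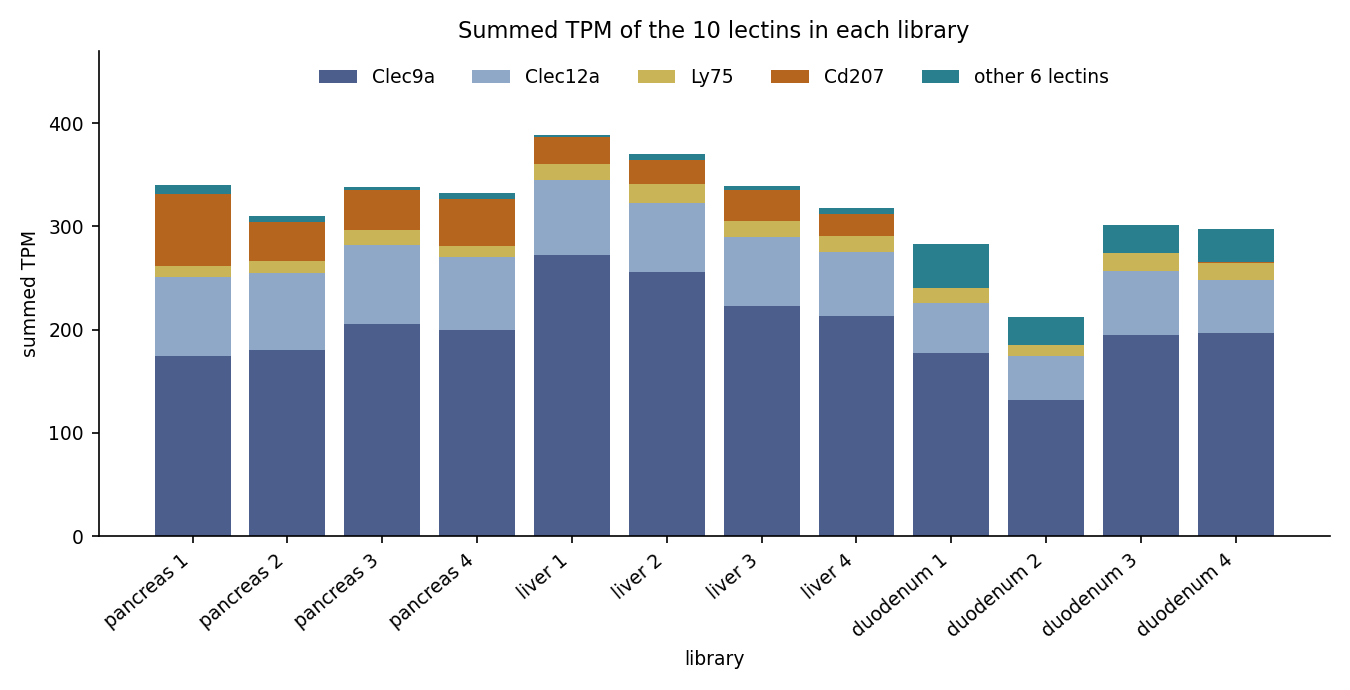
Stacked bars of the TPM of the 10 lectins in each of the 12 libraries, pancreas left, liver in the middle and duodenum right. Clec9a made up 51.4 to 70.0% of the sum, the Cd207 segment is visible in pancreas and liver, and the segment of the 6 low lectins is widest in duodenum, at 26.4 to 42.6 TPM.

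Of the 10 lectins, 5 differed between pancreas and duodenum in edgeR's quasi-likelihood test at an adjusted p under 0.05, 1 higher and 4 lower in pancreas, where 7.7% of the 44624 genes tested were called, 3.76% higher and 3.94% lower. Between liver and duodenum 5 were called, 1 higher and 4 lower in liver, against a background of 7.32%, with 3.37% higher and 3.95% lower. Between pancreas and liver 1 was called, higher in pancreas, against a background of 1.11%, with 0.681% higher and 0.426% lower. The background depends on the filter on low counts. A filter of 1 CPM in 1 tissue kept 18635 genes and 9 of the 10 lectins. With it 4842, 4752 and 955 genes and 6, 5 and 1 lectins were called in these 3 comparisons. The median log2 difference of the 10 was -0.17 between pancreas and duodenum, -1.14 between liver and duodenum and 0.23 between pancreas and liver, beside 0.09, 0.10 and -0.01 over all genes tested in these 3 comparisons. The TPM of the tissues did not overlap for 5, 7 and 4 of the 10 lectins in the same order of comparisons, a pattern that 13.6%, 15.6% and 7.33% of all genes tested showed. Comparisons that share a tissue share its libraries.

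**Figure D2:**
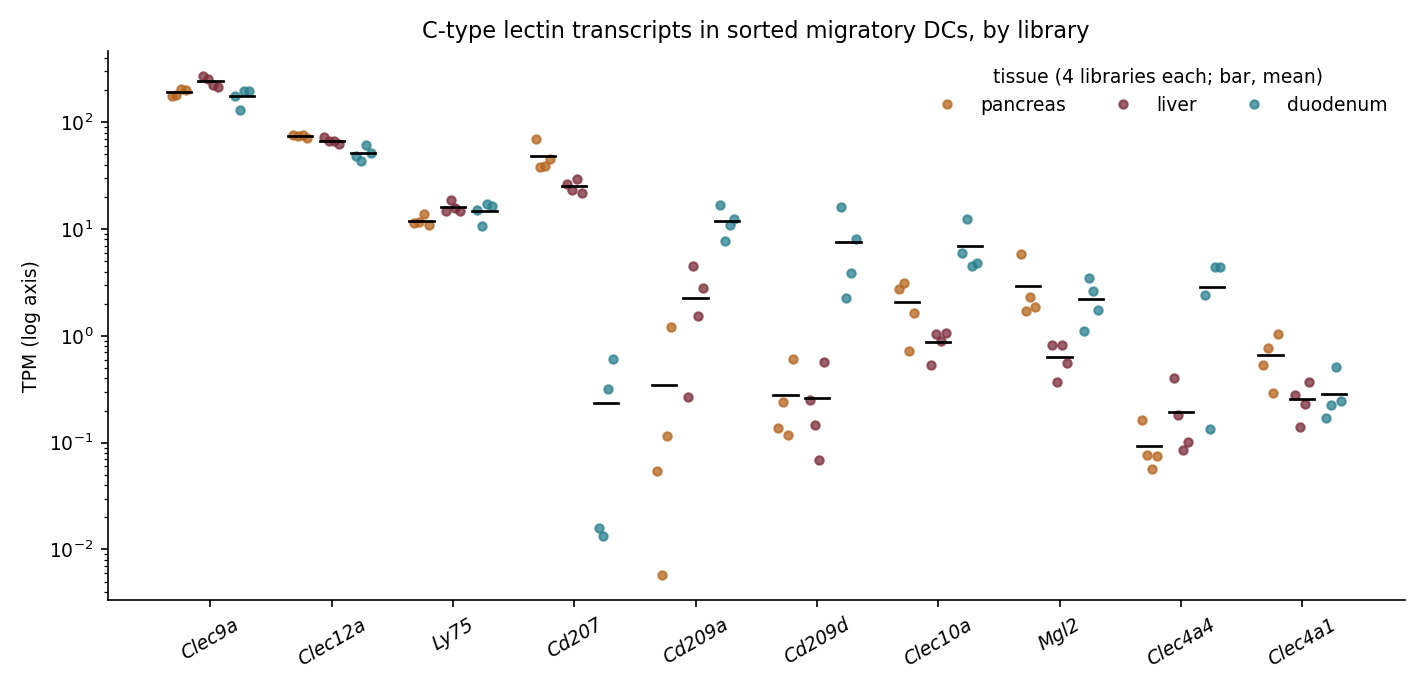
TPM of each of the 10 lectins in each library on a log axis, with pancreas left, liver in the middle and duodenum right within each gene; each point is 1 library of 2 pooled mice. Cd207 lies between 21.7 and 69.1 TPM in pancreas and liver and at or below 0.605 TPM in duodenum, and Cd209a and Cd209d lie highest in duodenum.

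In the fit of all 12 libraries, langerin was the lectin with the largest difference between tissues. Its 4 pancreas libraries had 69.1, 37.8, 38.9 and 45.2 TPM, its 4 liver libraries 26.3, 23.0, 29.4 and 21.7 TPM, and its 4 duodenum libraries 0.0160, 0.0133, 0.316 and 0.605 TPM. Every pancreas library lay above every liver library, and every liver library above every duodenum library. The ratio of mean TPM was 201 for pancreas over duodenum, 106 for liver over duodenum and 1.90 for pancreas over liver.

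Langerin rose by 7.52 ± 1.03 (log2, SE) in pancreas against duodenum (edgeR, adjusted p = 0.000721) and by 6.53 ± 0.98 in liver against duodenum (edgeR, adjusted p = 0.00168). The difference of 0.99 ± 0.77 between pancreas and liver did not pass (edgeR, adjusted p = 0.860), although the libraries of these 2 tissues did not overlap. A fit of pancreas and liver alone called it, with an adjusted p of 0.0202. In bulk RNA of sorted cells, fewer langerin-expressing cells and less langerin RNA per cell cannot be told apart.

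The duodenum libraries themselves fell apart for langerin. Duodenum 1 and 2 held 4.99 and 6.95 estimated counts, and duodenum 3 and 4 held 110 and 232, so that all 4 were above the limit of 3 counts used here as the floor. The coefficient of variation of TPM was 30.5% in pancreas, 13.7% in liver and 119% in duodenum. Without duodenum 4 the log2 difference was 8.59 for pancreas against duodenum and 7.60 for liver against duodenum.

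Other genes of Langerhans cells differed between tissues in their own ways. The summed level of 5 such markers was 436 to 651 CPM in pancreas, 328 to 393 CPM in liver and 222 to 342 CPM in duodenum, and Cd24a made up most of it. Without Cd24a the sum averaged 47.6 ± 7.22 CPM in pancreas, 13.2 ± 2.36 CPM in liver and 35.3 ± 10.8 CPM in duodenum. Of the 5, 1 was called higher and 1 lower in pancreas against duodenum, 0 higher and 2 lower in liver against duodenum, and 1 higher and 0 lower in pancreas against liver. Of all genes tested, 7.7%, 7.32% and 1.11% were called in these comparisons, which is also the background for the marker counts below.

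Epcam, the adhesion molecule that marks Langerhans cells, averaged 39.8 ± 5.62 CPM in pancreas, 5.82 ± 1.38 CPM in liver and 27.1 ± 9.82 CPM in duodenum. Cdh1, their E-cadherin, averaged 0.512 ± 0.306 CPM in pancreas, 0.741 ± 0.270 CPM in liver and 2.91 ± 1.02 CPM in duodenum. The part of Langerhans cell RNA in the langerin difference was not tested.

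Clec4f, the Kupffer cell lectin that lies next to Cd207 in the RefSeq gene order, stayed at low levels. It averaged 0.0929 ± 0.0452 TPM in pancreas, 0.348 ± 0.392 TPM in liver and 0.110 ± 0.0795 TPM in duodenum, and was called in none of the 3 comparisons.

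The genes most alike to langerin over the 12 libraries, by Pearson correlation of log2 CPM among 8359 genes, were Tctn2 at r = 0.972, Tnfrsf4 at 0.971, Snx10 at 0.971, Il6ra at 0.969 and Rftn1 at 0.968. Libraries of 1 tissue share their tissue's level, so the difference between tissues enters each of these values. Tnfrsf4, the costimulatory receptor OX40, averaged 14.0 CPM in pancreas, 10.1 CPM in liver and 1.12 CPM in duodenum. Il6ra, the receptor chain for interleukin 6, averaged 94.7 CPM in pancreas, 76.1 CPM in liver and 23.6 CPM in duodenum.

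Both Cd209 genes had their highest levels in duodenum, the tissue with the lowest langerin. Cd209a is a mouse relative of the human pathogen receptor DC-SIGN, and Cd209d encodes SIGN-R3, a receptor for mycobacterial sugars. Cd209a had 0.0537, 0.00572, 0.116 and 1.20 TPM in pancreas, 0.269, 4.46, 1.55 and 2.82 TPM in liver and 16.8, 7.78, 10.8 and 12.4 TPM in duodenum. All 4 duodenum libraries lay above all libraries of the other tissues, while pancreas and liver overlapped through pancreas 4 and liver 1.

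Cd209a fell by 5.21 ± 1.29 (log2, SE) in pancreas against duodenum (edgeR, adjusted p = 0.0309). The call was lost when any 1 of pancreas 1, pancreas 3, liver 3, liver 4, duodenum 1, duodenum 3 or duodenum 4 was left out, with adjusted p-values of 0.0525 to 0.0883 and differences of -5.25 to -4.80. It was also lost with no filter on low counts, at an adjusted p of 0.0533, and in a fit of pancreas and duodenum alone, at 0.0582. The difference was -2.58 ± 1.14 between liver and duodenum (edgeR, adjusted p = 0.243) and -2.63 ± 1.16 between pancreas and liver (edgeR, adjusted p = 0.527). Without pancreas 4 the differences were -7.79, -2.63 and -5.16 for pancreas against duodenum, liver against duodenum and pancreas against liver, with adjusted p-values of 0.000441, 0.0385 and 0.0186. Pancreas 4 also had the highest summed level of 9 monocyte markers in pancreas, 100.5 CPM against 45.7 to 55.1 CPM in the other 3 libraries, but Plac8 alone made up 70.4% of it, and without Plac8 the 4 pancreas libraries held 22.1 to 29.8 CPM. In pancreas 2 the gene had 1.85 estimated counts, below the floor.

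Cd209d had 0.139, 0.241, 0.119 and 0.611 TPM in pancreas, 0.253, 0.146, 0.0692 and 0.572 TPM in liver and 16.1, 2.24, 3.90 and 8.10 TPM in duodenum. The lowest duodenum library, duodenum 2, was above the highest library of either other tissue, and pancreas and liver overlapped. It fell by 4.88 ± 0.78 in pancreas against duodenum (edgeR, adjusted p = 0.00115) and by 5.09 ± 0.79 in liver against duodenum (edgeR, adjusted p = 0.00104). Left-out libraries moved these values to between -5.66, without pancreas 4, and -4.20, without duodenum 1, for pancreas, and to between -5.85, without liver 4, and -4.41, without duodenum 1, for liver. The difference of 0.21 ± 0.70 between pancreas and liver did not pass (edgeR, adjusted p = 0.989).

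The other Cd209 genes, which lie in the same row of neighbours on chromosome 8 in RefSeq, were at or below 6.49 TPM on average in every tissue. Cd209c averaged 5.01 ± 0.846 TPM in pancreas, 6.49 ± 0.992 TPM in liver and 5.003 ± 1.405 TPM in duodenum and was called in no comparison. Cd209f had its highest level in pancreas, with 0.392 ± 0.309 TPM in pancreas, 0.0610 ± 0.00766 TPM in liver and 0.0351 ± 0.0331 TPM in duodenum. It rose by 3.48 ± 0.82 in pancreas against duodenum (edgeR, adjusted p = 0.0159), a call lost without pancreas 4, duodenum 3 or duodenum 4, at adjusted p-values of 0.0539 to 0.0646. The libraries of pancreas and duodenum overlapped, and the lowest duodenum library, at 0.00516 CPM, lay below the floor. Cd209b, Cd209e and Cd209g averaged at most 0.673 TPM in any tissue and were not called.

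**Figure D3:**
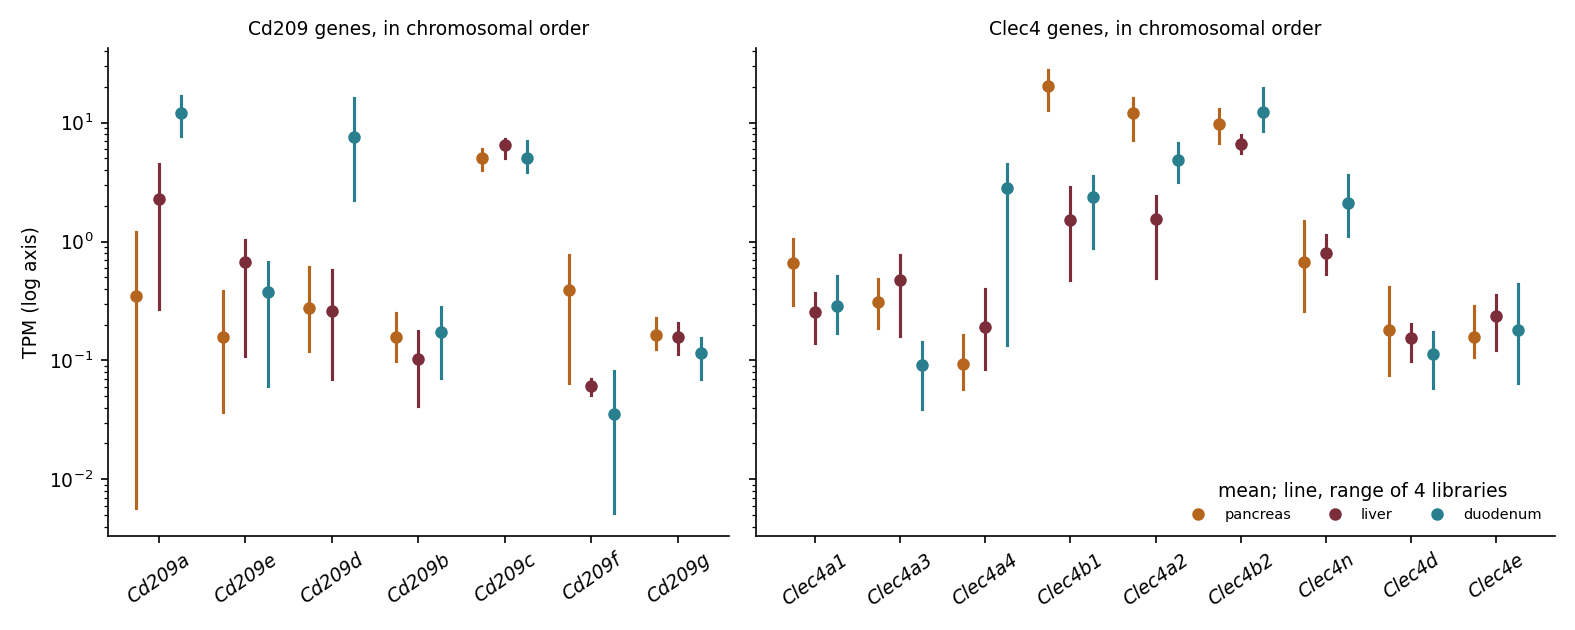
Mean TPM on a log axis, with a line for the range of 4 libraries. The Cd209 genes are on the left and the Clec4 genes without Clec4f and Clec4g on the right. Genes follow the RefSeq gene order, with pancreas, liver and duodenum drawn in that order. Cd209a and Cd209d stand highest in duodenum while Cd209c, at 5.01, 6.49 and 5.003 TPM, was called in no comparison, and Clec4b1 and Clec4a2 stand highest in pancreas while Clec4a4 stands highest in duodenum.

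Clec10a and Mgl2 are neighbours on chromosome 11 and encode the galactose-type lectins MGL1 and MGL2, which bind galactose and N-acetylgalactosamine. The tissue with the highest mean was duodenum for Clec10a and pancreas for Mgl2. Clec10a had 2.74, 3.12, 0.718 and 1.64 TPM in pancreas, 0.532, 1.04, 0.886 and 1.06 TPM in liver and 5.98, 12.5, 4.52 and 4.83 TPM in duodenum. Mgl2 had 5.78, 1.69, 2.32 and 1.87 TPM in pancreas, 0.816, 0.369, 0.816 and 0.554 TPM in liver and 1.11, 3.44, 2.60 and 1.75 TPM in duodenum. For Clec10a all duodenum libraries lay above the rest, whereas for Mgl2 all liver libraries lay below the rest and pancreas overlapped duodenum.

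Clec10a fell by 1.83 ± 0.41 in pancreas against duodenum (edgeR, adjusted p = 0.0111) and by 3.12 ± 0.43 in liver against duodenum (edgeR, adjusted p = 0.000364). Its difference of 1.28 ± 0.40 between pancreas and liver did not pass (edgeR, adjusted p = 0.221). Mgl2 fell by 1.93 ± 0.42 in liver against duodenum (edgeR, adjusted p = 0.0102) and rose by 2.23 ± 0.42 in pancreas against liver (edgeR, adjusted p = 0.0161), the 1 lectin of the 10 called between these tissues. Between pancreas and duodenum it differed by 0.30 ± 0.40 (edgeR, adjusted p = 0.794). With limma on log2(TPM + 1), a scale that understates changes of low genes, the Mgl2 difference between liver and duodenum was -0.93 and that between pancreas and liver 1.16, and both calls were lost, at adjusted p-values of 0.0725 and 0.0869.

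The pancreas against liver call of Mgl2 was lost without liver 2, at 2.04 with an adjusted p of 0.0543, and without liver 4, at 2.17 with an adjusted p of 0.0626. Without pancreas 1, its highest library, the difference was 1.75 with an adjusted p of 0.0417. Pancreas 1 also had the highest summed level of 11 acinar cell markers, 5683 CPM against 966 to 2893 CPM in the other 3 pancreas libraries, 3.73 to 5.29 CPM in liver and 3.40 to 19.4 CPM in duodenum. All 11 acinar markers were called higher in pancreas against each of the other tissues, and the part of acinar RNA in the Mgl2 difference was not tested.

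The most alike gene to Mgl2 was Tff2, a trefoil peptide of mucus-secreting epithelium, at r = 0.908, with 15.5 CPM in pancreas, 0.0595 CPM in liver and 2.87 CPM in duodenum. Clec10a was most alike to Aqp9, a water and glycerol channel, at r = 0.935, with 3.07 CPM in pancreas, 1.04 CPM in liver and 15.6 CPM in duodenum. Mgl2 and Clec10a share sequence: 19.3% of the 31-base words in GENCODE M21 transcripts of Mgl2 also occur in Clec10a, and 13.7% of those of Clec10a occur in Mgl2. How the estimation split such reads is not recorded, so their levels are less certain than those of Cd207, Cd209a, Cd209d and Clec4a1, which share no such word with another gene.

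Clec4a4 encodes DCIR2, an inhibitory receptor used to mark cDC2, and Clec4a1 encodes DCIR4 of the same family. Clec4a4 had 0.165, 0.0765, 0.0571 and 0.0751 TPM in pancreas, 0.399, 0.181, 0.0849 and 0.102 TPM in liver and 2.40, 0.134, 4.40 and 4.45 TPM in duodenum. Duodenum 2 stood apart from the other 3 duodenum libraries and lay within the range of pancreas and of liver, so the tissues overlapped. Duodenum 2 was not low for all of these lectins: it had the highest Clec10a and, within duodenum, the highest Mgl2.

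Clec4a4 fell by 5.06 ± 0.87 in pancreas against duodenum (edgeR, adjusted p = 0.00197) and by 4.09 ± 0.82 in liver against duodenum (edgeR, adjusted p = 0.00659). Without duodenum 2 these differences were -5.51 and -4.55, and without liver 1 the difference between liver and duodenum was -4.76. The difference of -0.98 ± 0.80 between pancreas and liver did not pass (edgeR, adjusted p = 0.871). Clec4a4 shared 19.4% of its 31-base words with Clec4a2.

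Clec4a1 stayed near the bottom of the set, with 0.538, 0.762, 0.292 and 1.05 TPM in pancreas, 0.278, 0.140, 0.229 and 0.372 TPM in liver and 0.169, 0.225, 0.512 and 0.246 TPM in duodenum. The tissues overlapped in every pair. Its differences of 1.10 ± 0.44, -0.35 ± 0.44 and 1.45 ± 0.45 for pancreas against duodenum, liver against duodenum and pancreas against liver did not pass (edgeR, adjusted p = 0.173, 0.775 and 0.204).

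The neighbours of these 2 genes in the Clec4 row on chromosome 6 included the lectins with the largest difference between pancreas and liver among the 38 other lectins listed. Clec4b1 averaged 20.3 ± 7.10 TPM in pancreas, 1.53 ± 1.06 TPM in liver and 2.35 ± 1.11 TPM in duodenum. It rose by 3.80 ± 0.55 in pancreas against liver (edgeR, adjusted p = 0.00217) and by 3.01 ± 0.53 in pancreas against duodenum (edgeR, adjusted p = 0.00229). Clec4a2, the inhibitory receptor DCIR, averaged 12.1 ± 4.12 TPM in pancreas, 1.54 ± 0.942 TPM in liver and 4.85 ± 1.52 TPM in duodenum. It rose by 3.06 ± 0.44 in pancreas against liver (edgeR, adjusted p = 0.00204) and fell by 1.82 ± 0.42 in liver against duodenum (edgeR, adjusted p = 0.0150).

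Clec9a, Clec12a and Ly75 passed the test in none of the 3 comparisons. Clec9a had 175, 180, 206 and 199 TPM in pancreas, 272, 256, 223 and 213 TPM in liver and 177, 131, 195 and 197 TPM in duodenum. In TPM all liver libraries lay above those of the other 2 tissues, which overlapped. In CPM the 3 tissues overlapped, at 324 to 411 in liver, 260 to 375 in pancreas and 210 to 358 in duodenum. For the lectins followed here, CPM and TPM of a gene differ only in how libraries are scaled. They are not separate measures. Its differences of 0.05 ± 0.16, 0.29 ± 0.16 and -0.24 ± 0.16 for pancreas against duodenum, liver against duodenum and pancreas against liver did not pass (edgeR, adjusted p = 0.939, 0.384 and 0.796), and the first was -0.052 with DESeq2's size factors.

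Clec12a had 75.7, 74.8, 76.7 and 70.4 TPM in pancreas, 72.9, 66.0, 67.1 and 62.2 TPM in liver and 48.7, 43.3, 61.5 and 51.6 TPM in duodenum. In TPM duodenum lay below both other tissues with no overlap, and pancreas and liver overlapped. In CPM duodenum, at 82.0 to 128, overlapped liver, at 112 to 132, and pancreas, at 133 to 165, lay above both. The difference of 0.46 ± 0.14 between pancreas and duodenum missed the threshold (edgeR, adjusted p = 0.0590) and passed it without duodenum 3, at 0.57 with an adjusted p of 0.0298, and with library totals as the only scaling, at 0.56 with an adjusted p of 0.000684. Between liver and duodenum it was 0.22 ± 0.14 and between pancreas and liver 0.24 ± 0.14 (edgeR, adjusted p = 0.452 and 0.709).

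Ly75 had 11.3, 11.5, 13.9 and 10.9 TPM in pancreas, 14.9, 18.8, 15.9 and 14.8 TPM in liver and 15.0, 10.7, 17.3 and 16.3 TPM in duodenum. In TPM pancreas lay below liver with no overlap, and duodenum overlapped both. In CPM pancreas, at 67.8 to 102, overlapped liver, at 90.1 to 114. Its differences of -0.39 ± 0.18, -0.05 ± 0.18 and -0.33 ± 0.18 in the same 3 comparisons did not pass (edgeR, adjusted p = 0.273, 0.932 and 0.689), and the second was 0.12 with library totals as the only scaling. Without duodenum 2, its lowest library there, the difference between pancreas and duodenum was -0.60 with an adjusted p of 0.0131.

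**Figure D4:**
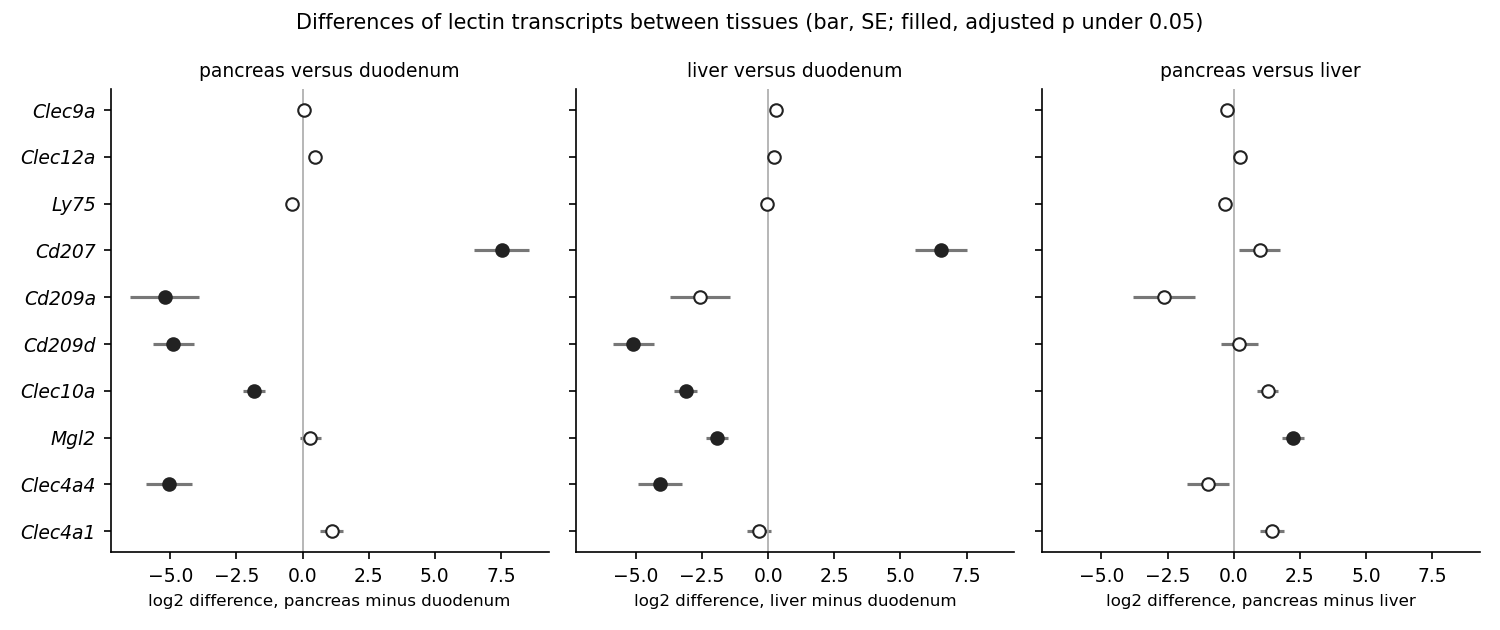
Log2 differences of the 10 lectins with SE from edgeR for pancreas minus duodenum, liver minus duodenum and pancreas minus liver; filled points have an adjusted p under 0.05. Cd207 stands at 7.52 and 6.53 against duodenum, Cd209d and Clec4a4 lie between -5.09 and -4.09 against duodenum, and Clec9a, Clec12a and Ly75 lie within 0.46 of 0.

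Some markers of cDC2, a type the sort does not select, were lower in pancreas and liver than in duodenum, like Cd209d, Clec10a and Clec4a4. Of 12 cDC2 markers, 2 were called higher and 4 lower in pancreas against duodenum, 2 higher and 4 lower in liver against duodenum, and 0 higher and 1 lower in pancreas against liver. Of all genes tested, 7.7%, 7.32% and 1.11% were called in these comparisons. The 12 markers summed to 1275 to 1590 CPM in pancreas, 971 to 1181 CPM in liver and 596 to 896 CPM in duodenum, of which Notch2 alone made up most in every library. Without Notch2 the other 11 summed to 134 to 241 CPM in pancreas, 119 to 157 CPM in liver and 214 to 345 CPM in duodenum.

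Klf4, a transcription factor of a cDC2 subset, averaged 43.1 ± 18.1 CPM in pancreas, 20.8 ± 2.40 CPM in liver and 192 ± 37.6 CPM in duodenum. Sirpa, the surface receptor that marks cDC2, averaged 1.51 ± 0.555 CPM in pancreas, 1.46 ± 0.564 CPM in liver and 7.15 ± 3.77 CPM in duodenum. Irf4, their transcription factor, averaged 2.36 ± 1.06 CPM in pancreas, 1.66 ± 0.340 CPM in liver and 9.30 ± 2.59 CPM in duodenum. The 2 cDC2 markers called higher in pancreas and in liver than in duodenum were Notch2, a receptor that cDC2 need to develop in the gut and spleen, and Relb, a subunit of NF-kappaB. Notch2 averaged 1191 ± 116 CPM in pancreas, 903 ± 80.7 CPM in liver and 503 ± 91.0 CPM in duodenum, and Relb 118 ± 37.1 CPM in pancreas, 102 ± 15.0 CPM in liver and 55.1 ± 20.4 CPM in duodenum. Itgam averaged 2.67 ± 0.950 CPM in pancreas, 1.70 ± 1.15 CPM in liver and 2.46 ± 0.650 CPM in duodenum and was not called. None of the 12 was at 0 in a whole tissue, and the part of cDC2 RNA in the Cd209a, Cd209d, Clec10a and Clec4a4 differences was not tested.

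Macrophage and plasma cell genes moved differently from each other. The 14 macrophage markers, of which 3 were called higher and 1 lower both in pancreas and in liver against duodenum, summed to 41.1 to 52.6 CPM in pancreas, 36.4 to 42.9 CPM in liver and 19.5 to 27.1 CPM in duodenum. Folr2 was at 0 in at least 1 pancreas library and 1 duodenum library. The 8 plasma cell markers, of which 5 were called lower in pancreas and 5 lower in liver against duodenum, summed to 248 to 615 CPM in pancreas, 217 to 302 CPM in liver and 5903 to 8826 CPM in duodenum. Their part in the lectin differences was not tested.

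Of the 9 monocyte markers, 1 was called higher and 2 lower in pancreas against duodenum, none in either direction in liver against duodenum, and 0 higher and 2 lower in pancreas against liver. Their sum was 45.7 to 100.5 CPM in pancreas, 331 to 398 CPM in liver and 368 to 475 CPM in duodenum, and without Plac8, which made up most of it in liver and duodenum, the means were 25.7 ± 4.03 CPM in pancreas, 36.8 ± 4.72 CPM in liver and 45.7 ± 18.6 CPM in duodenum. Plasmacytoid dendritic cell markers summed to 102 to 140 CPM in pancreas, 108 to 138 CPM in liver and 145 to 180 CPM in duodenum, and B cell markers to 11.9 to 21.2 CPM in pancreas, 10.0 to 13.7 CPM in liver and 22.4 to 27.8 CPM in duodenum. Hepatocyte markers without Trf, which made up most of their sum, averaged 1.85 ± 0.496 CPM in pancreas, 35.1 ± 8.74 CPM in liver and 1.96 ± 0.828 CPM in duodenum. The part of these cell types in the lectin differences was not tested.

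Immunoglobulin transcripts also separated single libraries. Pancreas 3, pancreas 4 and liver 2 had 1176 to 1331 CPM of them, against 143 to 171 CPM in the other 5 libraries of those tissues. The 4 duodenum libraries had more, 10273 to 16231 CPM, and none of them was left out here. Pancreas 3, pancreas 4 and liver 2 are called the 3 immunoglobulin-bearing libraries below. Without these 3 libraries together, langerin (Cd207) differed by 7.57 and 6.52 and Cd209d by -5.51 and -4.94 in pancreas and in liver against duodenum, and all 4 remained called. Cd209a differed by -8.85 in pancreas against duodenum, -3.16 in liver against duodenum and -5.70 in pancreas against liver (edgeR, adjusted p = 0.00139, 0.0275 and 0.0508). Its difference between pancreas and duodenum was then larger in size than that of langerin. However, only pancreas 1 and pancreas 2 remained in pancreas. They held 18.5 and 1.85 estimated counts of Cd209a, the latter below the floor. The calls of Clec4a4 and Clec10a between pancreas and duodenum and of Mgl2 between pancreas and liver were lost. The adjusted p-values from edgeR were 0.0715, 0.112 and 0.0944, again with only these pancreas libraries.

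Of the 38 other C-type lectins and related lectin-like receptors listed, all tested, 10 were called between pancreas and duodenum, 5 higher and 5 lower in pancreas. Between liver and duodenum 8 were called, 3 higher and 5 lower in liver, and between pancreas and liver 4, 3 higher and 1 lower in pancreas. Their median log2 difference was 0.16, 0.22 and -0.08 in these 3 comparisons, beside 0.09, 0.10 and -0.01 over all genes tested. Of all genes tested, 7.7%, 7.32% and 1.11% were called, a share that depends on the filter on low counts. With a filter of 1 CPM in 1 tissue, 4842, 4752 and 955 of 18635 genes were called. Whether these lectins were called more often than genes at similar levels was not tested. The 5 lower in pancreas against duodenum were Cd69, Thbd, Clec1b, Cd93 and Cd72. Cd69, an activation marker that retains lymphocytes in tissue, fell by 3.37 ± 0.42 in pancreas (edgeR, adjusted p = 0.000136) and by 2.00 ± 0.40 in liver (edgeR, adjusted p = 0.00611) against duodenum. Thbd, the thrombin receptor thrombomodulin, fell by 2.03 ± 0.36 in pancreas against duodenum (edgeR, adjusted p = 0.00238). The call of Cd72 was lost without duodenum 3, at an adjusted p of 0.0630.

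The 5 higher in pancreas against duodenum were Cd209f, Clec1a, Clec2g, Clec4b1 and Olr1, the last of which was named after its values were seen. The 3 higher in liver against duodenum were Clec1a, Clec2g and Clec4a3. Clec2g lost its call in pancreas without pancreas 1, pancreas 4, duodenum 2, duodenum 3 or duodenum 4, at adjusted p-values of 0.0593 to 0.0934, and in liver without pancreas 1, pancreas 4, liver 2, liver 4 or any 1 duodenum library, at 0.0528 to 0.192. Clec4a3 lost its call without liver 4, duodenum 1 or duodenum 3, at 0.0560 to 0.0697.

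The 5 lower in liver against duodenum were Cd69, Clec4a2, Clec4b2, Clec5a and Cd93. Clec4b2 lost its call without liver 2, liver 3, duodenum 3 or duodenum 4, at adjusted p-values of 0.0523 to 0.0708, and Cd93 without liver 2, duodenum 1 or duodenum 4, at 0.0556 to 0.0662. The 3 higher in pancreas against liver were Clec4b1, Clec4a2 and Clec5a, a receptor for dengue virus, and Clec5a lost its call without pancreas 1 or liver 2, at adjusted p-values of 0.0513 and 0.0544. Clec1b, the platelet receptor CLEC-2 and the 1 lower in pancreas against liver, lost its call without any 1 of 8 libraries (pancreas 1, 2 or 4, any liver library or duodenum 1), at 0.0522 to 0.121. Of the 31-base words of Clec9a, 4.63% also occur in Clec1b. Clec1b averaged 1.65 to 4.13 TPM in the 3 tissues, beside 175 to 241 TPM for Clec9a. The part of shared reads in the Clec1b level was not tested.

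Clec1a, the lectin beside Clec9a that binds fungal melanin, averaged 11.2 ± 0.873 TPM in pancreas, 18.6 ± 0.985 TPM in liver and 5.60 ± 0.778 TPM in duodenum. It rose by 0.92 ± 0.15 in pancreas against duodenum (edgeR, adjusted p = 0.00138) and by 1.57 ± 0.15 in liver against duodenum (edgeR, adjusted p = 2.21e-05). Clec7a, the beta-glucan receptor Dectin-1 that follows it in the row, averaged 3.89 ± 1.35 TPM in pancreas, 4.52 ± 0.825 TPM in liver and 4.32 ± 1.97 TPM in duodenum and was not called. Clec9a, which lies between Clec1b and Clec1a in the same row, was called in none of the 3 comparisons.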

How the data were processed

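RNA of sorted migratory dendritic cells was measured in 12 libraries, 4 per tissue. The submitters' processing notes name kallisto and build GRCm39; neither a version nor an annotation release is stated there. The files the authors deposited were a table of estimated counts per gene, not normalized to library total, and a table of TPM, scaled by the authors for gene length and library total. For the lectins followed here, the ratio of count to TPM kept the same proportion between genes across libraries. The counts thus look derived from TPM, and are neither raw read counts nor a second measure. How they were made is not stated, and the floor is a limit on that scale. Levels and order of genes are deposited TPM.

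Testing used edgeR 4.0.16 (R 4.3.3) on the deposited estimated counts after rounding to integers (TMM scaling, filterByExpr with a minimum count of 10, robust quasi-likelihood F test, all 12 libraries in 1 group-means model, Benjamini-Hochberg over 44624 genes, called at an adjusted p under 0.05). The script was tested on simulated data. CPM was computed from the counts and TMM factors; the floor was 3 counts, and such limits cover counting error only. Libraries of 1 tissue differed beyond counting noise, so each counted as 1 replicate.

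The 10 genes, 38 other lectins and 10 marker lists were chosen with earlier results of these data known. All 10 genes are described; of the other lectins, up to 8 called per comparison were named by size of difference, plus the neighbours of the 10 genes in RefSeq order and Olr1, which were named after values were seen. The 5 most alike genes were sought among genes averaging 10 CPM or more in 1 tissue. RefSeq promoters, present for 8 of the 10 genes, are on GRCm38.p6, not the build of the files, and were used as sequences only. Alternatives were other scalings, DESeq2 1.42.0, limma 3.58.1 on log2(TPM + 0.1) and log2(TPM + 1), other filters and the 2 tissues of a comparison alone. Further ones were a replicate block, each library left out, and the 3 pancreas and liver libraries with the most immunoglobulin left out together. Single-cell data named in the series design were not used here.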

Additional observations from a re-analysis of the deposited data

Results flagged for a closer look

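Each of the 10 lectins was checked in each tissue for a library whose gap to its nearest neighbour took more than 0.829 of the range of the 4 libraries, 30 checks in all. By chance about 1 in 20 groups is marked, and 2 of the 30 were. For Cd209a, pancreas 4 had 1.20 TPM, far above the other 3 pancreas libraries at 0.00572 to 0.116 TPM. For Mgl2, pancreas 1 had 5.78 TPM, far above the other 3 pancreas libraries at 1.69 to 2.32 TPM.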

How the results depend on the processing

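Over 22 alternatives per result, langerin and Cd209d against duodenum, in pancreas and in liver, and Clec4a4 and Clec10a between liver and duodenum stayed called in the same direction in every one run. Over all 10 lectins and 3 comparisons, 601 of 657 values kept direction and side of the threshold, 16 lost a call, 21 gained one and 19 changed sign, none of them called.

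Genes called between pancreas and liver, 494 in the fit reported, numbered 820 with library totals, 1153 with DESeq2, 955 with a filter of 1 CPM in 1 tissue and 177 without the 3 immunoglobulin-bearing libraries; without those, the fit called 1712 genes between pancreas and duodenum, beside 3437 as reported, and 2069 between liver and duodenum, beside 3265 as reported, where DESeq2 called 5050. The share of calls that were higher in liver than in duodenum was 46.0%, against 35.3% with DESeq2's size factors in edgeR, 63.5% with library totals, then 64.7% and 63.2% in limma fits of log2(TPM + 0.1) and log2(TPM + 1); the share higher in pancreas than in liver was 61.5%, against 47.8%, 42.6% and 42.4% with the last 3. With library totals the median of all genes moved to 0.25 between liver and duodenum, beside 0.10 with TMM, and Clec9a and Clec12a gained a call there. Lectins called between pancreas and liver, 1 as reported, numbered 3 with DESeq2, 0 with limma on log2(TPM + 1), 2 with only the tissues compared and 0 without the 3 immunoglobulin-bearing libraries, where 3 remained called between pancreas and duodenum.

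With 1 library left out, 2596 to 4716 genes were called between pancreas and duodenum and 2397 to 4807 between liver and duodenum. Between pancreas and liver the range was 343 to 749. The highest count in each comparison came without duodenum 2. Lectins called ranged over 4 to 6, 5 to 6 and 0 to 2 in the same order (0 without liver 2 or liver 4, 2 without pancreas 4).

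Uncalled values changed sign as follows. Clec9a between pancreas and duodenum was -0.052 with DESeq2's size factors, -0.051 with DESeq2, -0.16 without the 3 immunoglobulin-bearing libraries and -0.16 to 0.11 with 1 library left out. Ly75 between liver and duodenum was 0.12 with library totals, 0.13 and 0.12 in the limma fits, and -0.27 to 0.032 with 1 library left out. Cd209d between pancreas and liver was -0.57 without the 3 immunoglobulin-bearing libraries and -0.52 to 0.93 with 1 library left out. With 1 library left out, Mgl2 between pancreas and duodenum ranged over -0.23 to 0.47, Clec4a1 between liver and duodenum over -0.62 to 0.10, Clec5a between pancreas and duodenum over -0.036 to 0.47 and Clec2g between pancreas and liver over -0.090 to 0.80. The cause of these changes was not tested.

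No label says that replicate numbers pair libraries across tissues. In log2 CPM, after the mean of each tissue was subtracted per gene, same-numbered libraries correlated at -0.041 to 0.092. Among the libraries of other tissues, 3 of 12 correlated best with their own number. Such a check cannot decide whether libraries are paired. With the replicate number as a block, 3125, 2931 and 436 genes and 6, 5 and 1 lectins were called in pancreas against duodenum, liver against duodenum and pancreas against liver; the lectin added was Clec12a, at an adjusted p of 0.0497. Among the 10 lectins, counts near the floor limit Cd209a and Clec4a4 in pancreas and langerin in duodenum, where at least 1 library each held under 10 estimated counts. Of the other lectins named, Cd209f in duodenum had a library below the floor.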
